A study of Mus musculus with 38 samples.

Results

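The H3K4me1 domains of mouse epidermal stem cells (EpdSCs) were compared between 1 week (W1) and 2 weeks (W2) after the transcription factor SOX9 was switched on. The members were all broad domains of the W1 list (69439) and of the W2 list (73415), that is 142854 of the 1006702 intervals in the 14 lists of the series. A domain was called matched when it shared at least 1 bp with a domain of the other list, and otherwise W1-only or W2-only. By this rule 12118 domains were W1-only, 17621 were W2-only, and 43741 pairs matched one to one.

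The skin cells came from male K14rtTA; TRE-myc-Sox9 mice. In these mice the *Krt14* promoter drives a doxycycline (DOX)-dependent activator in skin epithelium, and DOX given from postnatal day 21 induced MYC-tagged SOX9. D0 cells had no induction, while W6 and W12 stand for 6 and 12 weeks on DOX, the latter in skin that had been grafted. All skin cells were sorted from back skin as CD49f-high, Ly6A-high and negative for CD34 and for CD31, CD45, CD117 and CD140a. Hair follicle stem cells, endothelial cells, leukocytes, melanocytes and fibroblasts were thus gated out. The W1 list came from 2 libraries, a high and a low micrococcal nuclease digest, each carrying both replicates. The W2 list came from 4 libraries, of which 2 held replicate 2 alone and 2 held replicate 1 together with the W12 cells, which were split by barcode. How fully the barcodes separated them could not be checked in the pooled lists. Each list pools its replicates and digests, so no spread between replicates could be had, and none of the differences below carries a p-value. Intervals in brackets are exact 95% Clopper-Pearson intervals of shares and cover counting error only. The read depth behind the H3K4me1 lists is unknown, so that a missing domain was below detection at the depth of its list rather than shown to be absent. A mark in more cells and more of the mark in each cell cannot be told apart in these bulk samples.

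H3K4me1, laid down at enhancers mainly by MLL3 and MLL4, marks enhancers that are primed or active. H3K27ac is added where an enhancer or promoter is active. SOX9 is an HMG-box factor of hair follicle stem cells that can bind its site in closed chromatin and bring in MLL3 and MLL4. Adult EpdSCs normally do not use it.

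Sequence is shown for single acetylated stretches inside changed domains. Few changed domains held an H3K27ac peak (2.50% of W2-only at W2, 4.21% of W1-only at W1), so these examples do not stand for the rest. Each window below holds 200 bp of the GRCm38 plus strand centred on the summit of the strongest H3K27ac peak of its domain. The windows near *Ect2* and *Tenm4* belong to the top-ranked W2-only domains with such a summit at W2. Those at *Cd34* and *Gli2* lie in W2-only domains and those at *Sox6* and *Klf5* in W1-only domains (with the summit at W1), and these 4 genes were chosen after their values had been seen. Capitals mark motif letters on either strand. The SOX motif was searched as ACAAAG and, in its other common form, as ACAATG. For AP1 the letters searched were TGANTCA. For RUNX factors they were TGTGGT, and for factors of the GATA family they were AGATAA.
*Ect2*, chr3:26921301-26921500, W2-only, intron of *Spata16*: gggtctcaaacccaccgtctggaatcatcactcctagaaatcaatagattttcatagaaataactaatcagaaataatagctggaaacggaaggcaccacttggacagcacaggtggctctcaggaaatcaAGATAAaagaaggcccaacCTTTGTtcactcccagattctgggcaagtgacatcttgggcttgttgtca
*Tenm4*, chr7:95992701-95992900, W2-only, intergenic: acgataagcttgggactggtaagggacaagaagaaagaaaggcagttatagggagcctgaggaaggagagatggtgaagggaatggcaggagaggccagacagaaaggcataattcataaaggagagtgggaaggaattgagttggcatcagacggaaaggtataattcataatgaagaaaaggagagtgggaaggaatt
*Cd34*, chr1:194941084-194941283, W2-only, intron of *Cd34*: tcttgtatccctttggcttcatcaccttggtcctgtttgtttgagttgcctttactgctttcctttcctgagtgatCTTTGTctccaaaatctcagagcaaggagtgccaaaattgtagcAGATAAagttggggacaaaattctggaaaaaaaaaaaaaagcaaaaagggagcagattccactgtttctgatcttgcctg
*Gli2*, chr1:118981730-118981929, W2-only, intron of *Gli2*: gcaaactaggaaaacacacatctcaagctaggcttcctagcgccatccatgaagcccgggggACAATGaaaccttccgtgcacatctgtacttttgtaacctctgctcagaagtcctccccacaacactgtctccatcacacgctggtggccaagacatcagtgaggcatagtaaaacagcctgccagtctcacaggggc
*Sox6*, chr7:115629048-115629247, W1-only, intron of *Sox6*: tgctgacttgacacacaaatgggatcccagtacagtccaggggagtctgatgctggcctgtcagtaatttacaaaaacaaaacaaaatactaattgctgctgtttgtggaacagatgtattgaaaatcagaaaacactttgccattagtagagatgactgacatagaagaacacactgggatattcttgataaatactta
*Klf5*, chr14:99551545-99551744, W1-only, intron of *Gm41230*: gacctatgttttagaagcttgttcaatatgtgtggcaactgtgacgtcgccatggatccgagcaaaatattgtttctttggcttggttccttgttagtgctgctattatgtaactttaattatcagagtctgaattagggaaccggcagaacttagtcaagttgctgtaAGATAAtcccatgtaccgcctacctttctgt

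The *Ect2* and *Cd34* windows each held 1 SOX and 1 GATA match, the *Gli2* window held 1 SOX match and the *Klf5* window 1 GATA match. No motif letters were found in the *Tenm4* and *Sox6* windows. A SOX match stood in 24.9% (20.7 to 29.6%) of the 385 windows around W2 summits in W2-only domains and in 26.7% (22.6 to 31.1%) of the 431 windows around W1 summits in W1-only domains. In the same kind of window around all H3K27ac summits the share was 22.1% at W2 and 22.4% at W1. The GATA letters were present in 8.05% (5.54 to 11.2%) of the W2-only windows and in 12.8% (9.76 to 16.3%) of the W1-only windows, against 8.22% and 8.31% of all windows at W2 and W1. For AP1 the shares were 5.45% (3.41 to 8.22%) and 8.58% (6.12 to 11.6%), against 5.36% and 5.37%. For RUNX they were 11.7% (8.65 to 15.3%) and 12.3% (9.35 to 15.8%), against 12.4% and 13.0%. The SOX, GATA and AP1 letters were thus more frequent in W1-only windows than over all W1 summits. Their intervals did not reach the share of all windows, which for SOX was missed narrowly. Around W1 summits in W1 matched domains the shares were 23.0% for SOX, 8.73% for GATA and 5.60% for AP1. The W1-only interval included that share for SOX and lay above it for GATA and AP1. In W2-only windows the intervals of all 4 motifs included the share of all W2 windows. GC content was 48.1% in W1-only windows and 51.2% over all W1 summits, and its part in these shares was not tested.

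Over whole domains, SOX letters occurred 1.73 times per kb in W2-only domains, 1.62 in W1-only domains and 1.52 in matched domains of both lists. GATA letters had the reverse order between the changed sets, with 0.654 per kb in W2-only and 0.716 in W1-only domains, against 0.589 in W2 matched domains. GC content was 44.6% and 44.7% in the W2-only and W1-only domains and 46.6% in W2 matched domains. SOX and GATA letters are rich in A and T, and the part of base composition in these densities was not tested. AP1 letters occurred 0.395, 0.413 and 0.364 times per kb and RUNX letters 0.826, 0.806 and 0.839 times, in the same order.

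To ask how far H3K4me1 moved within this week, the lists were set against each other. Of the W2 list, 24.0% was W2-only, and of the W1 list 17.5% was W1-only. In bases, 206 Mb lay in both lists, 88.4 Mb in the W2 list alone and 57.5 Mb in the W1 list alone. Of the bases held by W2 alone, 46.8% lay in W2-only domains and 53.2% at the edges of or between matched domains. For W1 these shares were 39.9% and 60.1%. In both directions, more bases changed around domains that both lists held than in domains that only 1 list held.

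Changed domains were short and stood low in their lists. W2-only domains had a median width of 2000 bp (quartiles 1400 and 2800 bp) and W1-only domains of 1600 bp (1200 and 2400 bp), against 3200 bp for W2 matched and 3000 bp for W1 matched domains. The widest W2-only domain spanned 29400 bp and the widest W1-only domain 9200 bp. When each list was cut into 3 equal parts by p-value, W2-only domains made up 2.04% of the strongest part of the W2 list, 20.2% of the middle part and 49.8% of the weakest part. For W1-only domains the shares were 1.32%, 13.6% and 37.4%. The weakest part thus supplied 12191 of the 17621 W2-only and 8653 of the 12118 W1-only domains. Most were still far below the p-value at which the lists end. When only the list being called was limited to a p-value of at most 1e-06, 15348 W2-only and 10509 W1-only domains were left. The other list was kept whole in each case.

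The 1 bp limit itself decided few calls. Among matched W2 domains 75 shared just 200 bp, the bin width of the lists, with W1, and the median matched W2 domain had 88.9% of its width in the W1 list. On the other side, 70 W2-only domains lay within 200 bp of a W1 domain and 1012 (5.74%) within 1000 bp, with a median gap of 10200 bp. For W1-only domains 87 lay within 200 bp and 1080 (8.91%) within 1000 bp, and the median gap was 6000 bp.

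Among the one-to-one matched domains, 49.1% (21482) were wider at W2 (48.6 to 49.6%), 41.8% (18271) were narrower (41.3 to 42.2%) and 3988 had the same width. The median difference was 0 bp and the mean difference 193 bp, with quartiles of -600 and 800 bp. At the ends of the range, 4441 domains were wider by at least 2000 bp and 2696 narrower by as much. A further 5123 W2 domains met more than 1 W1 domain, up to 6, and 3840 W1 domains met more than 1 W2 domain.

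**Figure D1:**
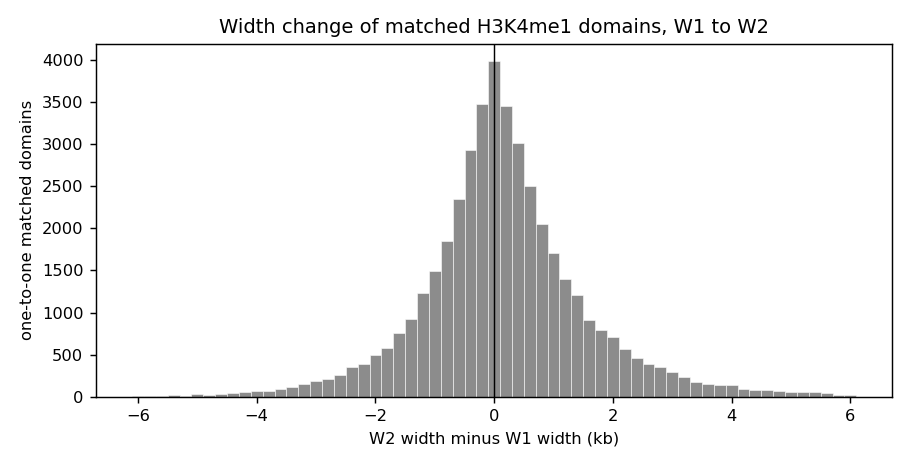
Histogram of W2 width minus W1 width, in kb and in steps of 0.2 kb, for one-to-one matched H3K4me1 domains, with the y axis giving the number of domains and the vertical line marking no change; differences beyond 6 kb are not drawn. The distribution peaks at 0, with a heavier right side: 21482 domains were wider at W2 and 18271 narrower.

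Widening went with the H3K27ac peaks of the same weeks. Of the 3394 matched domains with an H3K27ac peak at W2 and none at W1, 57.5% (55.8 to 59.2%) were wider at W2 and 34.3% narrower, with a median difference of 300 bp. Of the 3627 with a peak at W1 and none at W2, 36.8% (35.3 to 38.4%) were wider and 54.8% narrower, with a median difference of -200 bp. Domains with a peak in both weeks (10234) gave 46.8% wider and 44.6% narrower, and those with none (26486) gave 50.6% and 39.8%. Median W1 width was 4800 bp for domains with a peak in both weeks and 2400 bp for those with none, and the part of width in this pattern was not tested. Distance from start sites made little difference, with 49.3% wider within 2500 bp and 49.0% beyond. Domains that D0 lacked (2252) were wider at W2 in 64.7% (62.7 to 66.7%), against 48.3% (47.8 to 48.7%) of those that D0 held. Their median W1 widths were 2000 bp and 3000 bp, and the part of width in this contrast was not tested.

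The domains that widened most clustered in a few places. Of the 5 largest increases, 3 lay inside *Pdzrn3* (chr6:101149609-101377897), which encodes a PDZ-domain ubiquitin ligase. At chr6:101261001-101298600 a W1 domain of 800 bp stood inside a W2 domain of 37600 bp, and a neighbour grew from 2200 to 33000 bp. *Klhl29*, a kelch-family gene, had a domain of 2000 bp at W1 and 36000 bp at W2 (chr12:5242801-5278800). *Trabd2b*, encoding a protease that cleaves Wnt proteins, went from 4000 to 30800 bp at its start (chr4:114406801-114437600). Decreases were smaller. The largest were at *Cast* (calpastatin, from 12200 to 1400 bp), *Kif13a* (a kinesin, 18400 to 7800 bp), *Klf12* (a KLF repressor whose start lay 410364 bp away, 13400 to 2800 bp), *Sipa1l2* (14600 to 4800 bp) and *Ptprz1* (a receptor phosphatase, 14400 to 4800 bp).

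Next, the place of the changed domains was examined. W2-only domains lay over 2500 bp from any annotated start site in 85.7% (85.1 to 86.2%) and W1-only domains in 83.7% (83.0 to 84.3%), against 63.8% (63.4 to 64.2%) of W2 matched and 63.3% (62.9 to 63.7%) of W1 matched domains. The centres of 45.4% of W2-only domains fell in introns beyond that distance, and 37.9% were intergenic. A start site lay inside 6.70% of W2-only domains, 6.82% of W1-only domains and 25.2% of W2 matched domains. The median distance was 18314 bp for W2-only and 13698 bp for W1-only domains, and 21.4% and 15.4% lay over 50000 bp away. The changed domains of both kinds were thus more distal than the matched ones, and W2-only domains the more distal of the pair. Matched domains were also wider and stood higher in their lists, and the part of width and rank in these shares was not tested.

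Of the 5 top-ranked W2-only domains, 4 lay over 50000 bp from the start of their nearest protein-coding gene. The first, at rank 3722 of the W2 list, spanned chr3:26908801-26938200 in an intron of *Spata16*, 215654 bp from the start of *Ect2*, a regulator of cell division. It was absent from the D0 list, present at W6 and W12, and held an H3K27ac peak of 8.42-fold enrichment at W2 alone. The others lay 105097 bp from *Ttc29*, 90985 bp from *Tmem170b*, 173046 bp from the teneurin gene *Tenm4* and 4532 bp from *Fam47e*. All 5 were found again at W6, and 2 (those near *Ttc29* and *Tmem170b*) had been present at D0. The 5 top-ranked W1-only domains lay nearest to *Zfp568* (a zinc-finger gene), *Atp6ap2*, *Aggf1*, *Nnt* and *Slitrk6*. All 5 were held by the D0 and W6 lists as well, and those near *Zfp568*, *Atp6ap2* and *Aggf1* had H3K27ac peaks at D0 and W1 and none at W2.

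Whether the changes had a past and a future was asked with lists that the comparison did not use. W1-only domains overlapped a D0 domain in 88.5% (87.9 to 89.0%) of cases. W2-only domains did so in 31.4% (30.7 to 32.1%), and W2 matched domains in 95.4% (95.2 to 95.6%). At W6, 57.6% (56.8 to 58.5%) of W1-only domains were found again and 38.5% (37.8 to 39.2%) of W2-only domains, against 93.9% (93.7 to 94.1%) of W2 matched domains. At W12 the shares were 47.9%, 34.5% and 89.4% in the same order. W12 cells shared 2 libraries with W2 replicate 1, and the part of this in the W12 shares was not tested.

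History split the sets further. Of the W2-only domains that D0 also lacked (12094), 29.2% (28.4 to 30.1%) were found at W6 and 26.3% (25.5 to 27.1%) at W12. Of those that D0 had held (5527), 58.8% (57.5 to 60.1%) and 52.5% (51.2 to 53.8%) were found. W1-only domains that D0 held (10720) gave 59.5% (58.6 to 60.4%) at W6 and 50.7% (49.7 to 51.7%) at W12. W1-only domains that D0 lacked (1398) gave 43.4% (40.8 to 46.1%) and 26.6% (24.3 to 29.0%). Among domains that D0 held, the W1-only and W2-only shares were thus close. Among those that D0 lacked, they differed at W6 and were close at W12. The largest class of W2-only domains, 7556 or 42.9%, was in no other H3K4me1 list from skin. In contrast 5.77% of W1-only domains were in no other H3K4me1 list from skin. Another 36.9% (4469) of W1-only domains were held by D0, W6 and W12 and missing at W2 alone. The W2-only domains held by D0, W6 and W12, and so missing at W1 alone, numbered 2308 (13.1%). A total of 2177 W2-only domains (12.4%) were absent at D0 and W1 and held by W2, W6 and W12.

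**Figure D2:**
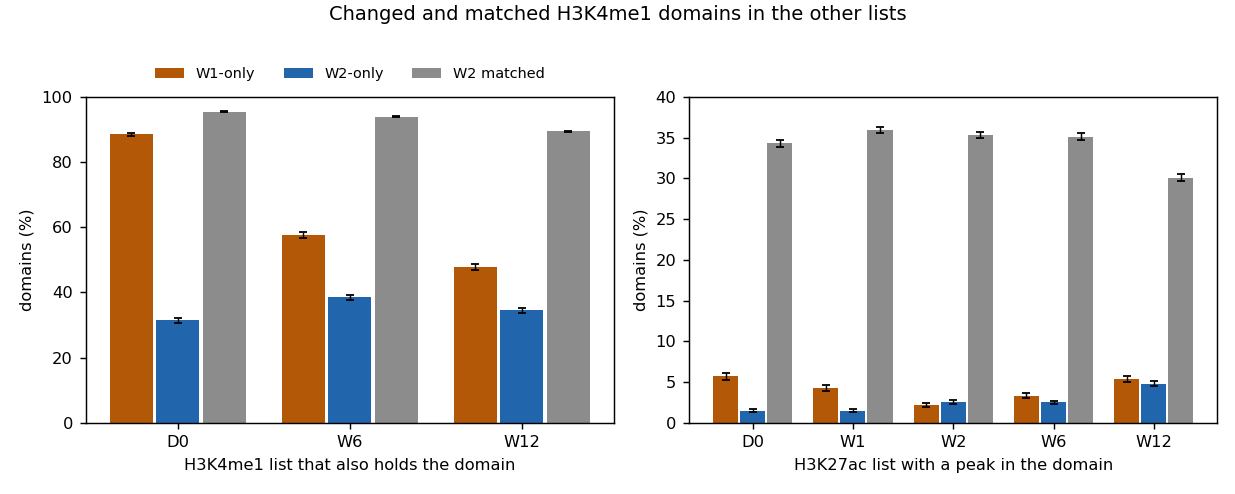
Bars show the percentage of W1-only, W2-only and W2 matched H3K4me1 domains that shared at least 1 bp with an H3K4me1 domain (left, D0, W6 and W12) or an H3K27ac peak (right, all 5 time points), with exact 95% intervals of counting error; the vertical axes differ between panels. W1-only domains stood at 88.5% at D0 and W2-only domains at 31.4%, and neither set reached 6% for H3K27ac, against 30.1 to 35.9% of matched domains.

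Few changed domains carried H3K27ac. A peak was present at W2 in 441 W2-only domains, 2.50% (2.28 to 2.74%), and at W1 in 510 W1-only domains, 4.21% (3.86 to 4.58%), whereas 35.3% of W2 matched and 35% of W1 matched domains held one in their own week. Between W1 and W2 this small share changed in the same direction as H3K4me1. In W2-only domains it was 1.46% (1.29 to 1.65%) in the W1 list and 2.50% in the W2 list, with 1.45% at D0, 2.49% at W6 and the highest value, 4.77%, at W12. In W1-only domains it was 4.21% in the W1 list and 2.20% (1.95 to 2.48%) in the W2 list, with 5.71% at D0, 3.33% at W6 and 5.37% at W12. Matched domains are wider, and the part of width in the gap between matched and changed domains was not tested. The H3K27ac lists held 32544 peaks of median width 642 bp at W1 and 29081 of 821 bp at W2. The W12 list held 33985 peaks of median width 476 bp, more and narrower than each other H3K27ac list. The part of this in the W12 shares was not tested.

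Bases added and removed at the edges of one-to-one matched domains had unlike histories too. Of the 32.6 Mb added at W2, 36.5% lay in D0 domains and 38.6% in W6 domains. Of the 24.1 Mb removed at W2, 63.6% lay in D0 domains and 43.6% in W6 domains.

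The genes nearest to the changed domains were counted next, by start site of protein-coding genes. W2-only domains had 6600 nearest genes and W1-only domains 6381. They were unevenly shared: 255 genes were nearest to 10 or more W2-only domains and together held 21.1% of the set, against 55 genes and 5.92% for W1-only domains. The W2-only set is the larger (17621 domains against 12118), and the part of set size in this contrast was not tested. Matched domains were not counted in this way.

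*Sox9* itself (chr11:112782224-112787760, plus strand) was nearest to most W2-only domains, 46, against 5 W1-only domains. Counted from its start, their centres lay between -824 kb and 257 kb, 37 of them upstream, in the large gene-poor region where distal enhancers of *Sox9* are known to lie. None was nearer to the gene start than 18424 bp. None held an H3K27ac peak at W2, 17 overlapped a D0 domain, and 18 were found at W6. Summed over all domains nearest to *Sox9*, H3K4me1 spanned 253 kb at W1 and 428 kb at W2, the lowest and the highest of the 5 lists. The spans were 315 kb before induction, 321 kb at W6 and 266 kb at W12. H3K27ac peaks nearest to the gene numbered 24 at W1 and 33 at W2, against 18 before induction, 22 at W6 and 19 at W12.

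The other genes nearest to most W2-only domains were *Bmper* (35 domains), which encodes a secreted BMP-binding protein, the heparan sulphate proteoglycan gene *Gpc6* (33), *Klhl29* (33), *Auts2* (31), the adhesion receptor gene *Adgrl3* (30), the potassium channel gene *Kcnma1* (30), the zinc-finger repressor gene *Trps1* (29), the adhesion gene *Sdk1* (28) and the splicing regulator gene *Ptbp2* (27). At 8 of these 9 genes, all but *Trps1*, the W2 span of H3K4me1 was higher than in each of the other lists. These genes and *Sox9* were chosen for their W2-only domains, so that a high W2 span and a low W1 span are in large part built in. Domains nearest to *Bmper* (chr9:23223076-23485200) spanned 129 kb at W2, against 38.6, 19.6, 14.4 and 42.6 kb in the D0, W1, W6 and W12 lists. Those nearest to *Klhl29* (chr12:5077472-5375682) spanned 213 kb at W2, against 37.4, 20, 20.6 and 49.8 kb. At *Gpc6* (chr14:116925315-117976544) the W2 span was 102 kb, against 4.0, 6.40, 31.6 and 23.4 kb, and at *Sdk1* it was 95.6 kb, against 31.2, 23.2, 13.0 and 24.2 kb. *Trps1* kept its increase, from 49.0 kb at W1 to 108 kb at W2, 123 kb at W6 and 119.8 kb at W12. No W1-only domain was nearest to *Bmper*, *Gpc6* or *Sdk1*.

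W1-only domains were most numerous at other genes. Since these genes were chosen for those domains, a W2 span below that of W1 is in large part built in. *Sox6* (chr7:115470872-116038796, minus strand), a SOX factor without an activation domain, was nearest to 30 W1-only and to 0 W2-only domains. Of these 30, 29 overlapped a D0 domain, and 6 were found at W6. H3K4me1 nearest to *Sox6* spanned 231 kb at W1 and 97.4 kb at W2, with 339.6 kb before induction, 101 kb at W6 and 135 kb at W12. H3K27ac peaks nearest to it numbered 17 at W1 and 5 at W2. *Gata3* (chr2:9857078-9890034, minus strand), a GATA factor of epidermal differentiation, was nearest to 28 W1-only and 3 W2-only domains, and all 28 lay 239 to 1229 kb downstream of its start. Its H3K4me1 spanned 349 kb at W1 and 250.4 kb at W2, with 472 kb before induction and 301 kb at W6, while the W2-minus-W1 difference within 10 kb of the gene was only -2.27 percentage points. *Klf5* (chr14:99298691-99315036), a KLF factor of basal keratinocytes, had 21 W1-only domains and 1 W2-only domain, and 16 of the 21 were found again at W6. Its span went from 206 kb at W1 to 117 kb at W2 and 202 kb at W6.

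The rest of that set were *Robo1* (23 W1-only domains), a Slit receptor, the ephrin receptor gene *Epha4* (20), the nuclear receptor gene *Rora* (19), the KLF gene *Klf6* (18), the phosphodiesterase gene *Pde4d* (18), the chromatin organiser gene *Satb1* (18) and *3110018I06Rik* (15, beside 12 W2-only domains). At *Satb1* the 98.0 kb of W1 were 49.0 kb at W2 and 38.2 kb at W6, and all 18 of its W1-only domains overlapped a D0 domain. Large neighbourhoods hold more domains of every kind, and each of these counts stands beside a total: 53 W1 and 85 W2 domains were nearest to *Sox9*, 56 and 29 to *Sox6*, 87 and 64 to *Gata3*.

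**Figure D3:**
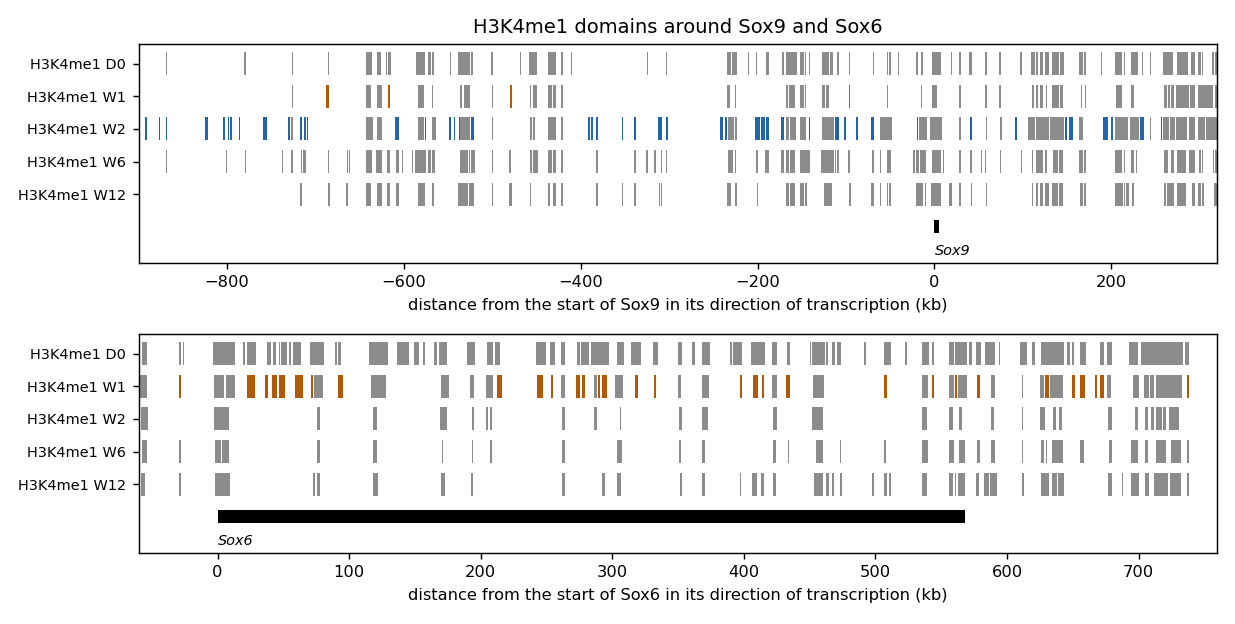
Each row shows the H3K4me1 domains of 1 list around *Sox9* (top) and *Sox6* (bottom), as distance in kb from the start of the gene in its direction of transcription; blue marks W2-only domains, orange W1-only domains, grey matched domains and all domains of D0, W6 and W12, and the black bar is the gene. The W2 row at *Sox9* holds blue domains across much of the drawn region upstream of the gene, whichever gene they are nearest to, and the W1 row at *Sox6* holds orange domains across the gene body with no blue domain in the W2 row.

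For single genes, cover was measured as the percentage of a gene and 10 kb on both sides that lay in H3K4me1 domains. Of 21938 protein-coding genes, 2057 (9.38%) had at least 10 percentage points more cover at W2 than at W1 and 1107 (5.05%) at least 10 points less, and the median difference was 0. Among genes with more cover the median cover was 24.2% at W1, 41.3% at W2 and 31.2% at W6, and 83.7% of them had less at W6 than at W2. Among genes with less cover it was 41.3%, 26.0% and 33.4%. These 2 sets were chosen on W1 and W2, so that a return towards the other lists is in part built in.

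The hair follicle stem cell list had the largest median difference of the 14 lists. Of its 14 genes 8 had at least 10 points more (all 8 at least 20 points) and 0 had 10 points less. The counts at 10 points stand beside 9.38% and 5.05% of all protein-coding genes. The count at 20 points stands beside 2.06% (451) of all protein-coding genes with as much more cover. The median difference was 23.0 points, beside 0 for all genes. *Tcf7l1*, a TCF factor of follicle stem cells, had 26.3% cover at W1 and 81.5% at W2. *Cd34*, the surface marker of bulge stem cells, had 3.77% and 49.5%. *Lhx2*, a LIM-homeodomain factor of the bulge, had 39.1% and 78.8%, and *Tbx1*, a T-box factor, had 29.0% and 66.2%. *Sox9* had 22.7% and 57.1%, *Lgr5*, an R-spondin receptor gene, 6.73% and 35.7%, *Tcf7l2* 52.4% and 75.5%, and *Nfatc1*, a quiescence factor of bulge cells, 60.4% and 83.2%. At *Sox9* the gene body was covered for 61.0% at W1 and 100% at W2, and reads of the transgene cannot be told apart from it there.

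The remaining 6 genes stayed within 10 points. The nuclear factor gene *Nfib* had 55.0% and 64.6%, the vitamin D receptor gene *Vdr* 79.5% and 87.4%, and the bulge keratin gene *Krt15* 78.3% and 79.1%. *Nfia* (35.4% and 30.8%) and *Foxc1* (85.8% and 81.4%) had less. *Fgf18* had 5.20% at W1 and 8.81% at W2. The list was chosen with earlier results of these data known, and its counts are a description.

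Over the whole list, median cover was highest at W2, at 70.9%, against 45.0% before induction, 37.2% at W1, 45.6% at W6 and 46.7% at W12. The W2 list as a whole covered 295 Mb, between the 309.7 Mb of D0 and the 264 Mb of W1. All 8 genes with at least 10 points more had less at W6 than at W2, and 6 of them lay nearer to their W1 than to their W2 cover, though they were counted for being high at W2. H3K27ac cover was also higher at W2 than at W1 in all 8, beside 7848 higher and 5907 lower among all 21938 protein-coding genes, and its list median was 4.04% at W1, 7.71% at W2 and 2.13% at W6. At *Cd34* (chr1:194938819-194961279) 3 W2-only domains were called, the widest of 10200 bp over the gene start (chr1:194937801-194948000) with an H3K27ac peak of 4.73-fold. At the gene start the W6 list held a shorter domain of 4800 bp and the W12 list one of 8600 bp, and D0 held none. At *Tcf7l1* (chr6:72626378-72789254) 5 W2-only domains of 1600 to 9400 bp stood between matched domains that had widened, so that H3K4me1 ran through most of the gene.

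**Figure D4:**
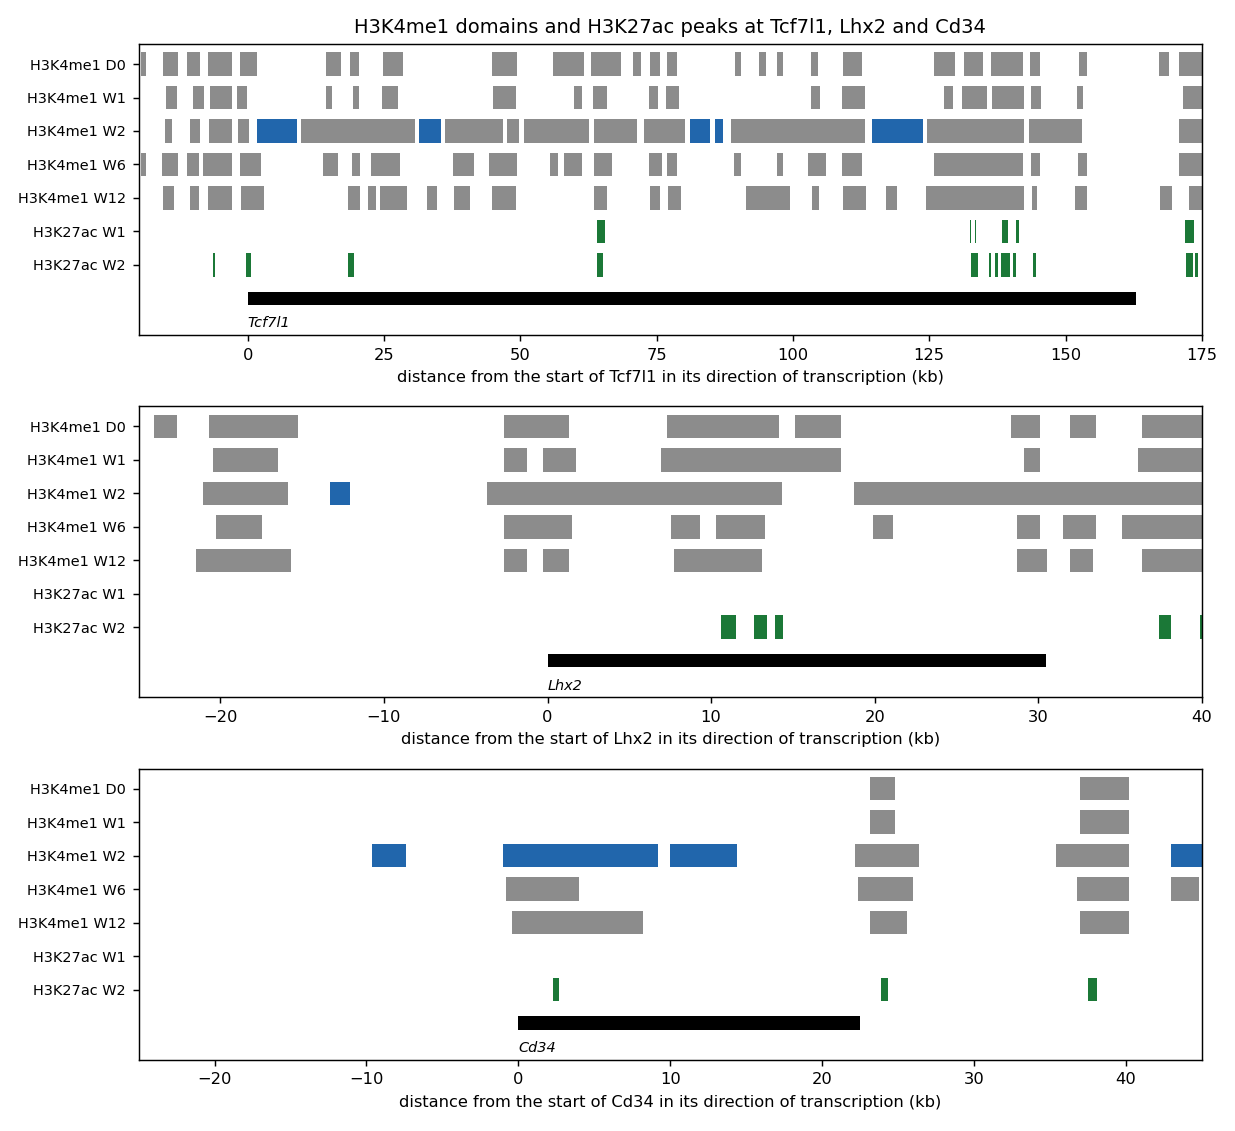
H3K4me1 domains of the 5 lists and H3K27ac peaks of W1 and W2 (green) at *Tcf7l1*, *Lhx2* and *Cd34*, as distance in kb from the gene start; blue marks W2-only domains, grey matched domains and all domains of D0, W6 and W12, and black bars are genes. The W2 row is the fullest at each gene, and *Lhx2* and *Cd34* have green peaks at W2 and none at W1 in the windows drawn.

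The sort bears on this list directly, since CD34 was used to remove hair follicle stem cells and Ly6A to keep EpdSCs. *Ly6a*, which encodes the kept surface marker, had cover of 25.9% at W2, against 62.2% before induction, 57% at W1, 64.8% at W6 and 59.6% at W12, so that W2 stood lowest for *Ly6a* as it stood highest for *Cd34*. A W1-only domain of 4800 bp lay upstream of *Ly6a* (chr15:74999201-75004000). Of the keratin genes of basal cells, *Krt5* had 89.9% at W1 and 96.9% at W2 and *Krt14*, whose promoter is also in the transgene, at 66.2% and 84.3%. Whether the cells sorted at W2 differed in their share of follicle cells was not tested.

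Markers of the other cells that the sort removed had list medians below those of all protein-coding genes (14.9% at W1 and 16.1% at W2) in both weeks. Of 6 melanocyte genes 0 changed by 10 points, *Tyr* and *Tyrp1* stood at 0 in both weeks, and list medians were 7.77% at W1 and 3.90% at W2. Of 5 endothelial genes 0 changed by 10 points, with medians of 3.96% and 9.38%. *Pecam1*, which encodes the CD31 of the sort, had 44.2% at W1 and 40.7% at W2, *Kdr* had 3.96% and 11.9%, *Cdh5* 0% and 4.77% and *Emcn* 0% and 1.80%. The 6 leukocyte genes had medians of 4.07% and 9.09%, with *Lyz2* at 0 in both weeks. Of 6 fibroblast genes 1 had more, the collagen gene *Col1a1* (44.0% and 56.6%), with medians of 3.42% and 4.17% and *Col3a1* and *Lum* at 0 in both weeks. Over all protein-coding genes 9.38% had at least 10 points more and 5.05% at least 10 points less, so few changes are awaited in lists this short. Flanks of 10 kb can take in a neighbour's domains.

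Epidermal identity genes moved less. Of 13 genes 1 had at least 10 points more, *Klf4* (a KLF factor of differentiation, 45.0% at W1 and 57.7% at W2), and 2 had at least 10 points less, the grainyhead gene *Grhl3* (64.4% and 48.9%) and the AP2 gene *Tfap2c* (74.5% and 63.5%). Over all protein-coding genes 9.38% had at least 10 points more and 5.05% at least 10 points less. The median difference of the list was -2.57 points and list medians were 58.0% at W1 and 58.5% at W2. *Trp63*, the master factor of stratified epithelia, had 58.0% and 58.5%. With flanks of 50 kb in place of 10 kb, 4 epidermal genes had less and 0 more, and 9 hair follicle genes had more and 0 less. With these wider flanks, 4.23% (928) of all protein-coding genes had more and 1.29% (282) less.

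**Figure D5:**
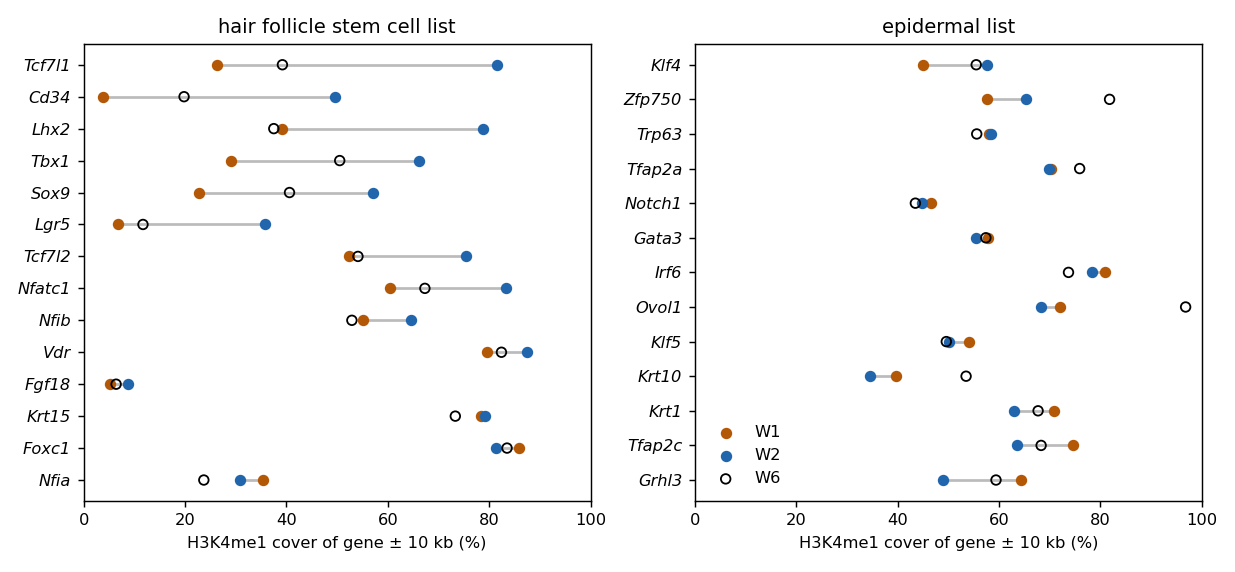
H3K4me1 cover, in percent of a gene and 10 kb on both sides, for the 14 hair follicle stem cell genes (left) and the 13 epidermal genes (right), with filled points for W1 (orange) and W2 (blue), open points for W6 and grey lines joining W1 to W2. Long lines to the right are seen in 8 follicle genes, from *Tcf7l1* (26.3% to 81.5%) to *Nfatc1* (60.4% to 83.2%), with W6 to the left of W2 in each.

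Among hedgehog pathway genes the 2 transcription factor genes *Gli2* (32.4% at W1 and 68.3% at W2) and *Gli3* (21.2% and 39.8%) had at least 10 points more, and 0 of 9 genes had less. These counts stand beside 9.38% of all protein-coding genes with more and 5.05% with less. *Gli2* held 8 W2-only domains in its gene body and *Gli3* 10. The receptors *Ptch1* (21.6% and 29.3%) and *Smo* (42.4% and 40.5%) and the ligand gene *Shh* (16.4% and 23.8%) stayed within 10 points. *Gli2* and *Gli3* had less at W6, 40.6% and 16.6%.

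Wnt pathway genes went both ways. Of 12 genes 5 had more cover and 4 less, beside 9.38% and 5.05% of all protein-coding genes. More was found at *Sfrp1*, a secreted Wnt inhibitor (49.5% and 86.7%), the co-receptor gene *Lrp6* (34.9% and 52.4%), *Tcf7* (38.8% and 50.2%), *Dkk3* (62.5% and 73.9%) and *Ctnnb1*, which encodes β-catenin (63.5% and 74.3%). Less was found at the receptor gene *Fzd10* (82.4% and 62.8%), the ligand genes *Wnt3* (59.2% and 42.2%) and *Wnt4* (74.8% and 59.7%) and the feedback gene *Axin2* (68.7% and 54.4%). In the 4 with less cover H3K27ac cover was also lower at W2, and in the 5 with more it was higher, beside the 7848 higher and 5907 lower of all genes.

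The other lists changed at few members. Over all protein-coding genes 9.38% had at least 10 points more and 5.05% at least 10 points less. Single changed genes in lists this short are therefore not read as results about a pathway. Of 7 lesion marker genes 3 had more, the stress keratins *Krt6a* (39.0% and 71.8%) and *Krt6b* (0% and 17.7%) and the EMT factor gene *Snai2* (38.2% and 59.5%), and 1 had less, the adhesion gene *Epcam* (33.1% and 17.6%). The same W2-only domain (chr15:101686001-101691400) met the regions of *Krt6a* and *Krt6b*. It lay outside the *Krt6b* gene, in its flank, so that these calls are not separate. The genes are also near-identical neighbours, and the split of reads between them is uncertain. Both had still more at W6, 76.7% and 26.6%. Of 9 EGFR pathway genes the ligand genes *Tgfa* (41.6% and 59.5%) and *Hbegf* (46.6% and 62.4%) had more and *Ereg* (43.7% and 22.2%) less. Of 8 Notch pathway genes the target *Hes1* (57.3% and 73.5%) had more and the ligand gene *Jag2* (78.1% and 48.0%) less. Of 8 AP1 genes 1 had more, *Jun* (45.8% and 62.9%), and of 4 RUNX genes 1, *Cbfb*, the shared partner (29.7% and 43.1%). *Runx1* had 44.2% and 52.2% and lay within 10 points. Of 9 basal keratinocyte genes 2 had more, *Krt14* and the laminin gene *Lamb3* (25.2% and 36.0%), and 1 less, *Ly6a*.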

How the data were processed

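The series holds 38 MINT-ChIP samples in 16 groups, of which the H3K4me1 lists of W1 and W2 were compared here. As the study describes it, the authors aligned barcode-split reads to GRCm38/mm10, removed duplicates, merged replicates, and used MACS2 for H3K27ac peaks and epic2 for broad domains of H3K4me1. The submitters' processing notes name Bowtie2 2.2.9, SAMtools 1.9, MACS2 2.1.1, SICER 0.0.36 and deepTools 2.5.4. Caller settings and controls are not given in the sources used here. The deposited H3K4me1 lists give a p-value per domain, used only to rank domains (ties by width). The deposited H3K27ac lists give a fold enrichment (a linear ratio), the −log10 of q and a summit per peak, and the deposited culture lists a fold enrichment. Read depth of the H3K4me1 lists is unknown.

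Domains on 21 chromosomes were used, with end positions moved by 1 base because epic2 counts the last base from 0. Distances were taken to 77221 start sites of the GENCODE M21 basic set, and gene cover for 21938 protein-coding genes. Sequences came from RefSeq GRCm38.p6. Named were the nearest protein-coding genes of the 5 top-ranked domains of each changed set, of the 5 matched domains that widened and the 5 that narrowed most, and the 10 genes nearest to most domains of each changed set, plus 14 gene lists. The members and lists were chosen with earlier results of these data known. Functions were tested on simulated lists. Shares carry exact 95% intervals (Python 3.11.15, SciPy 1.17.1). Alternatives were other overlap, list length, p-value, width, joining, distance, flank and difference limits and leaving out chromosomes X and Y. Total H3, 2 culture lists with other SOX9 variants and 14 barcode files were not used here. The result of 1 gene of the leukocyte list, and the count of that list's changed genes, are not reported here.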

Additional observations from a re-analysis of the deposited data

How the results depend on the processing

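Of 40 alternatives over 11 results, 16 gave a share within the reported interval and 24 moved a share out of it or a count by over 1.5 times. The share of W2-only domains (24.0%) was 24.7% with an overlap of 50% of the shorter domain, 21.9% in equal numbers of top-ranked domains, 22.0% at a p-value of at most 1e-06 and 23.5% at widths of at least 1000 bp. That of W1-only domains (17.5%) was 18.3%, 19.4%, 15.9% and 16.3% under the same settings, so that it stayed below the W2-only share in all 4. Matched domains wider at W2 (49.1%) came to 56.9% when all W1 domains with a match were set against the summed width of their W2 partners, with a median difference of 400 bp. Beyond 1000 bp of a start site lay 90.0% of W2-only and 88.8% of W1-only domains, and beyond 10000 bp 66.0% and 59.0%; with the 50% overlap the W1-only share beyond 2500 bp was 82.6%. Found at W6 at the stricter p-value were 40.3% of W2-only and 59.4% of W1-only domains. An H3K27ac peak was held by 2.83% and 4.69% at that p-value, and by 2.09% and 3.43% where its summit had to lie in the domain. Genes with more cover numbered 928 with flanks of 50 kb and 451 at a difference of at least 20 points, against 2057, and genes with less cover 282 and 143, against 1107. The cause of these shifts was not tested. No paired analysis was possible because each list pools its replicates, and for the same reason no replicate could be left out. Unknown depth limits every statement about a missing domain.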

Other observations

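Chromosome X stood apart among the W1-only domains. They made up 32.2% of the 1275 W1 domains on X, against 14.7 to 19.1% on the 19 autosomes, while W2-only domains made up 27.2% of the 1188 W2 domains on X, against 18.8 to 29.0% on autosomes. All mice were male by their labels. Chromosome Y held 5 W1 and 3 W2 domains. The W1 and W2 lists each also held 2 domains on the mitochondrial genome, which carries no histones, and the W12 list held 0; these were left out of all counts.

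The culture lists, from EpdSCs grown in vitro, gave a further view of the changed domains. By the paper's methods these were *Krt14-rtTA* EpdSCs that received DOX-inducible, MYC-tagged SOX9 by lentivirus and were selected with puromycin. W2-only domains overlapped a culture H3K4me1 domain in 33.1% (32.4 to 33.8%) without DOX and in 40.5% (39.7 to 41.2%) with DOX and wild-type SOX9. W1-only domains did so in 46.2% (45.3 to 47.1%) and 44.1% (43.2 to 45.0%), and W2 matched domains in 76.3% and 78.0%. The culture lists pool their replicates as well, so the differences between them were not tested.

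Single genes outside the fixed lists, picked here after their values were seen, were among those with the largest differences in cover. *Ccl2*, a monocyte chemokine gene, had 17.4% at W1 and 75.3% at W2, and kept 74.2% and 66.7% at W6 and W12. *Sox8*, a close relative of *Sox9*, had 28.7% at W1, 78.2% at W2 and 59.7% at W6. On the other side, the interleukin-1 antagonist gene *Il1rn* had 67.2% at W1, 28.3% at W2 and 56.0% at W6, the lipoxygenase gene of the skin barrier *Alox12b* 40.2%, 7.32% and 30.5%, and the keratin gene of upper epidermal layers *Krt2* 56.0%, 24.7% and 35.3%.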
